A study of Mus musculus with 7 samples.

Results

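Cd2, Cd5, Cd6, Thy1 and Cd7 encode surface proteins by which T cells are recognised and through which they touch other cells. The 5 genes were examined for places marked by 2 transcription factors, LEF1 and TCF1, in mouse spleen cells sorted as naive CD8 T cells. The values are peak intervals, stretches of DNA where an antibody-directed nuclease released more fragments than the local background. An interval was counted for a gene when it touched the gene body or 10 kb on either side. By this rule the 5 genes drew 190 distinct intervals of 148118 in the series. Intervals that overlapped between libraries were merged into regions, of which the 5 genes had 46 of 38231.

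The series mapped both factors by CUT&RUN, in which a nuclease tethered to an antibody cuts the DNA around the bound protein. Peak lists of 3 libraries with an antibody to LEF1 and 3 with an antibody to TCF1 (the product of Tcf7) were compared. All 6 came from spleen cells of wild-type genotype that carried the P14 T cell receptor transgene and were sorted as CD8+, Ly5.1+, CD44- and CD62L+, so both groups share the transgene and the gate. The mice's ages, and whether replicates were separate animals or pools, are not given in the labels, so p-values cover the spread between libraries alone, and that spread may be technical. The input control was sorted through another gate (Ly5.1- and CD44+), and no peak list of it was analysed here.

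LEF1 and TCF1 belong to the HMG box family, bind closely related short DNA sequences and are known as regulators of T cell development and of the naive state. CD2 is an adhesion receptor of the immunoglobulin superfamily that binds CD48 in the mouse. CD5 and CD6 are related scavenger receptor cysteine-rich proteins, and their genes are neighbours. CD5 dampens T cell receptor signalling, and its level on naive T cells follows how strongly a cell responds to self peptides. CD6 binds ALCAM (the product of Alcam). Thy1 (CD90) is a small glycoprotein held in the membrane by a lipid (GPI) anchor and is a classic marker of mouse T cells, and CD7 is an immunoglobulin superfamily protein of T and NK cells.

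Of the 5 genes, the RefSeq promoter table (GRCm38.p6) held Cd5. Part of its promoter entry is shown, because all 6 libraries had a peak summit within the 300 bases of that entry. The summits themselves lie outside the part shown. The stretch lies on the minus strand at chr19:10739027-10739224, upstream of the outer end of the annotated gene, and runs 5′ to 3′ with the ETS core letters AGGAAG in capitals.

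Cd5 promoter: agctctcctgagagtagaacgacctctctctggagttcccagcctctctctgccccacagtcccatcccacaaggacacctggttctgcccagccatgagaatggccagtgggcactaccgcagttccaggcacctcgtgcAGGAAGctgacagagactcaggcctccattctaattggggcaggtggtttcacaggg

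The 300 bases of the table's Cd5 entry (250 before and 50 after its gene start) held neither CTTTGA nor CTTTGT on either strand, the core letters of TCF/LEF sites. These letters occur in 16% and 18.7% of the 32851 promoters in the table. AGGAAG occurred at 2 places, 109 to 104 and 52 to 47 bases before the start, and is present in 35.4% of promoters. The first lies in the stretch shown, and the second lies just beyond its 3′ end. The E box letters CANNTG also occurred at 2 places and are found in 72.3% of promoters, and the RUNX letters TGTGGT (16.8% of promoters) did not occur. A match, or the lack of one, describes these letters in this window only.

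The LEF1 lists held 23704 to 37646 peaks and the TCF1 lists 11423 to 25623, with TCF1 replicate 3 the shortest. Read totals are not given in the lists. A factor was taken to hold a region when at least 2 of its 3 libraries had a peak in it. Fold enrichment is the authors' value at a peak's summit against its local background, and is used here to rank peaks within a list, as a percentile in which 0 is the strongest peak. Because longer lists mark more places, each count is also given per 10000 peaks of its list and with lists of equal size, the 11423 peaks of each library with the highest −log10 q. CD8 T cell markers fixed for the cell type check (Cd3e, Cd3d, Cd3g, Cd8a, Cd8b1 and Lck) held regions of both factors at 6 of 6 genes, B cell markers at 2 of 3, myeloid markers at 1 of 3 and NK cell markers at 0 of 2. Over all protein-coding genes, 52.6% had a region held by LEF1 and 49.8% one held by TCF1. Peaks do not measure expression, so the marker counts describe peaks at these genes only.

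All 5 genes held regions of both factors, and no region was held by TCF1 alone. LEF1 held 38 regions at the 5 genes and TCF1 held 25, all 25 of them also held by LEF1. Of all protein-coding genes, 52.6% had a region held by LEF1, 49.8% one held by TCF1 and 33.8% one found in every library. A region held by LEF1 and not TCF1 was present at all 5 genes, against 20.7% of all genes, and one held by TCF1 and not LEF1 at 0 of 5, against 4.82%. A gene with more regions can more easily include a region of either kind, and these shares do not allow for the number of regions. The median gene had 1 LEF1 and 0 TCF1 regions, where the medians of the 5 genes were 9 and 5. Of the 46 regions, 13 (28.3%) were found in all 6 libraries, against 28.5% of all regions. Those held by both factors made up 54.3%, against 53.6% of all regions. Those held by LEF1 alone made up 28.3% (13 regions), against 18.1%, and those held by TCF1 alone 0, against 1.93%. The shares found in every library and held by both factors were thus near those of all regions. The TCF1 count rested on 2 libraries for many regions: without TCF1 replicate 1 or TCF1 replicate 2, where the other of them and TCF1 replicate 3 both need a peak, TCF1 held 13.

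Cd2 was the most densely marked of the 5. The gene spans 12.0 kb (chromosome 3, 101275908 to 101287939) and its window of 32.0 kb held 17 regions, 12 held by LEF1 and 10 by TCF1. That is 3.75 LEF1 and 3.12 TCF1 regions per 10 kb of window, against means of 0.273 and 0.226 over every protein-coding gene. Of 21887 genes, 3 had a LEF1 density and 5 a TCF1 density at least as high, Cd2 included. By number of regions its place was less extreme, with 175 genes holding at least as many for LEF1 and 143 for TCF1, Cd2 included. Cd5 (chromosome 19, 10718107 to 10739026, 20.9 kb) held 9 LEF1 and 6 TCF1 regions. Cd6 (chromosome 19, 10789339 to 10830062, 40.7 kb) held 9 and 5. Thy1 (chromosome 9, 44043384 to 44048579, 5.20 kb) held 4 and 3, and Cd7 (chromosome 11, 121036747 to 121039478, 2.73 kb) held 4 and 1. For TCF1 the order of density was Cd2, Cd5 (1.47), Thy1 (1.19), Cd6 (0.823) and Cd7 (0.440). For LEF1 the order was Cd2, Cd5 (2.20), Cd7 (1.76), Thy1 (1.59) and Cd6 (1.48). The genes were chosen with earlier results of these data known, so these places in the order are descriptions.

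**Figure D1:**
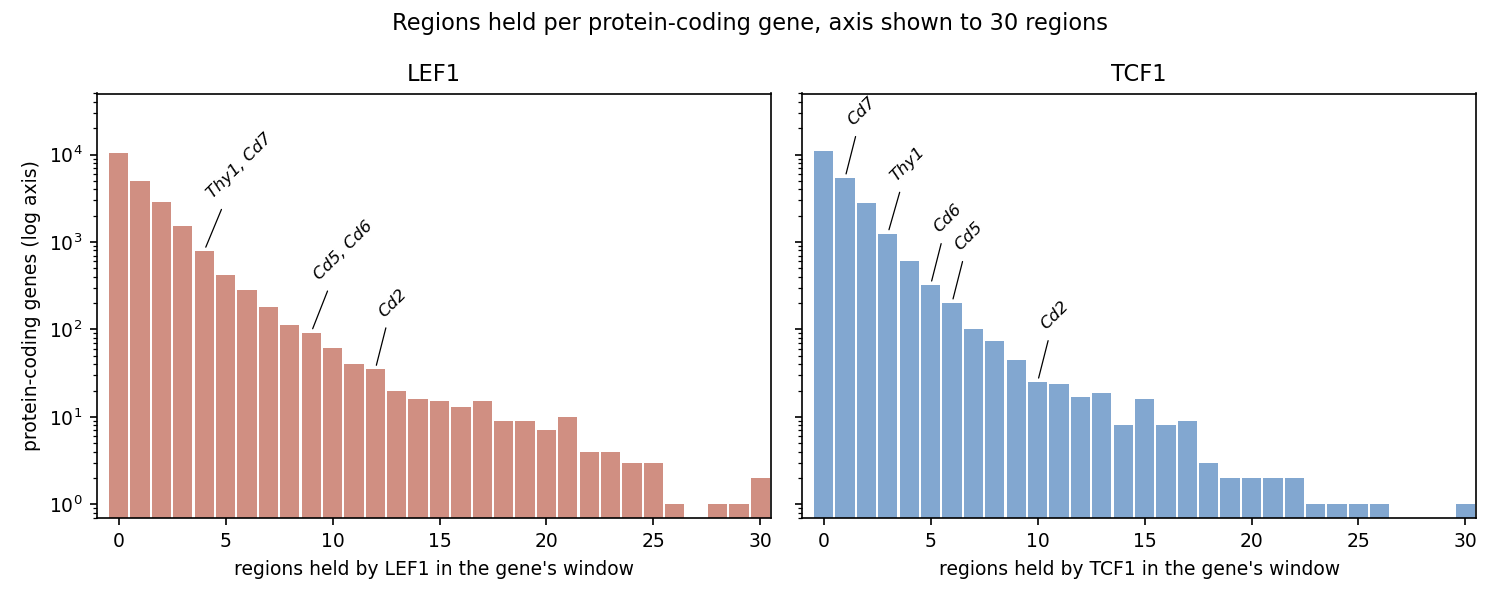
Histograms of the number of regions held by LEF1 (left) and by TCF1 (right) in each protein-coding gene's window, with the number of genes on a log axis and the 5 genes marked. Cd2, with 12 LEF1 and 10 TCF1 regions, lies in the right tail of both, and Cd7 lies at 1 region for TCF1.

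The adhesion receptor gene Cd2 carried its strongest peaks inside the gene and just below its lower end. Regions are numbered here from low to high coordinate within each window. Region 6 (101276294 to 101277212), 0.386 kb inside the lower end, had fold enrichments of 36.2, 46.2 and 32.4 in LEF1 replicates 1 to 3 and of 35.9, 29.4 and 16 in TCF1 replicates 1 to 3. In lists of equal size it ranked 2228, 2614 and 2070 for LEF1 and 2213, 2613 and 2381 for TCF1, where 1 is the strongest. Region 4 (101274620 to 101275229), 0.679 kb outside that end, had 34, 41 and 25.7 for LEF1 and 28.3, 26 and 13.5 for TCF1. Its ranks in equal lists were 2516, 3295 and 3213 for LEF1 and 3422, 3269 and 3258 for TCF1, so in both regions the ranks of the factors overlapped.

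Region 8 of Cd2 (101280266 to 101280924), in the middle of the gene, varied most in rank among the 4 Cd2 regions found in all 6 lists of equal size. Its fold enrichment was 30.4, 62.9 and 36.1 in the LEF1 libraries and 38.4, 28.0 and 9.47 in the TCF1 libraries. Its ranks in equal lists were 3189, 1348 and 1665 for LEF1 and 1911, 2880 and 5781 for TCF1, so the groups overlapped and TCF1 replicate 3 ranked it lowest. The other Cd2 regions of all 6 libraries were region 1 (101265136 to 101266523; fold enrichment 10.9 to 35.9), 9.38 kb below the gene, and region 13 (101287741 to 101288409; 7.97 to 19.9), which spans the upper end. The gene table used here gives no strand for Cd2, so which end is the start is not stated.

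The remaining 12 Cd2 regions were each found in 5 libraries or fewer. Region 17 (101297152 to 101297581), 9.21 kb above the gene, was missing only from TCF1 replicate 3 and had its summit at the same base in the other 5 libraries. Regions 10, 14 and 16 were likewise found in every library but TCF1 replicate 3. Regions 3 and 15 were held by LEF1 only, each with a peak in 3 LEF1 libraries and 1 TCF1 library. A long non-coding RNA gene, Gm32803 (101290998 to 101296608), overlaps regions 14, 15 and 16. Region 12 was held by both factors with 2 libraries each, and region 11 by neither. Of the 4 Cd2 regions found in 1 library, 3 were in LEF1 replicate 2, which has the longest list.

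**Figure D2:**
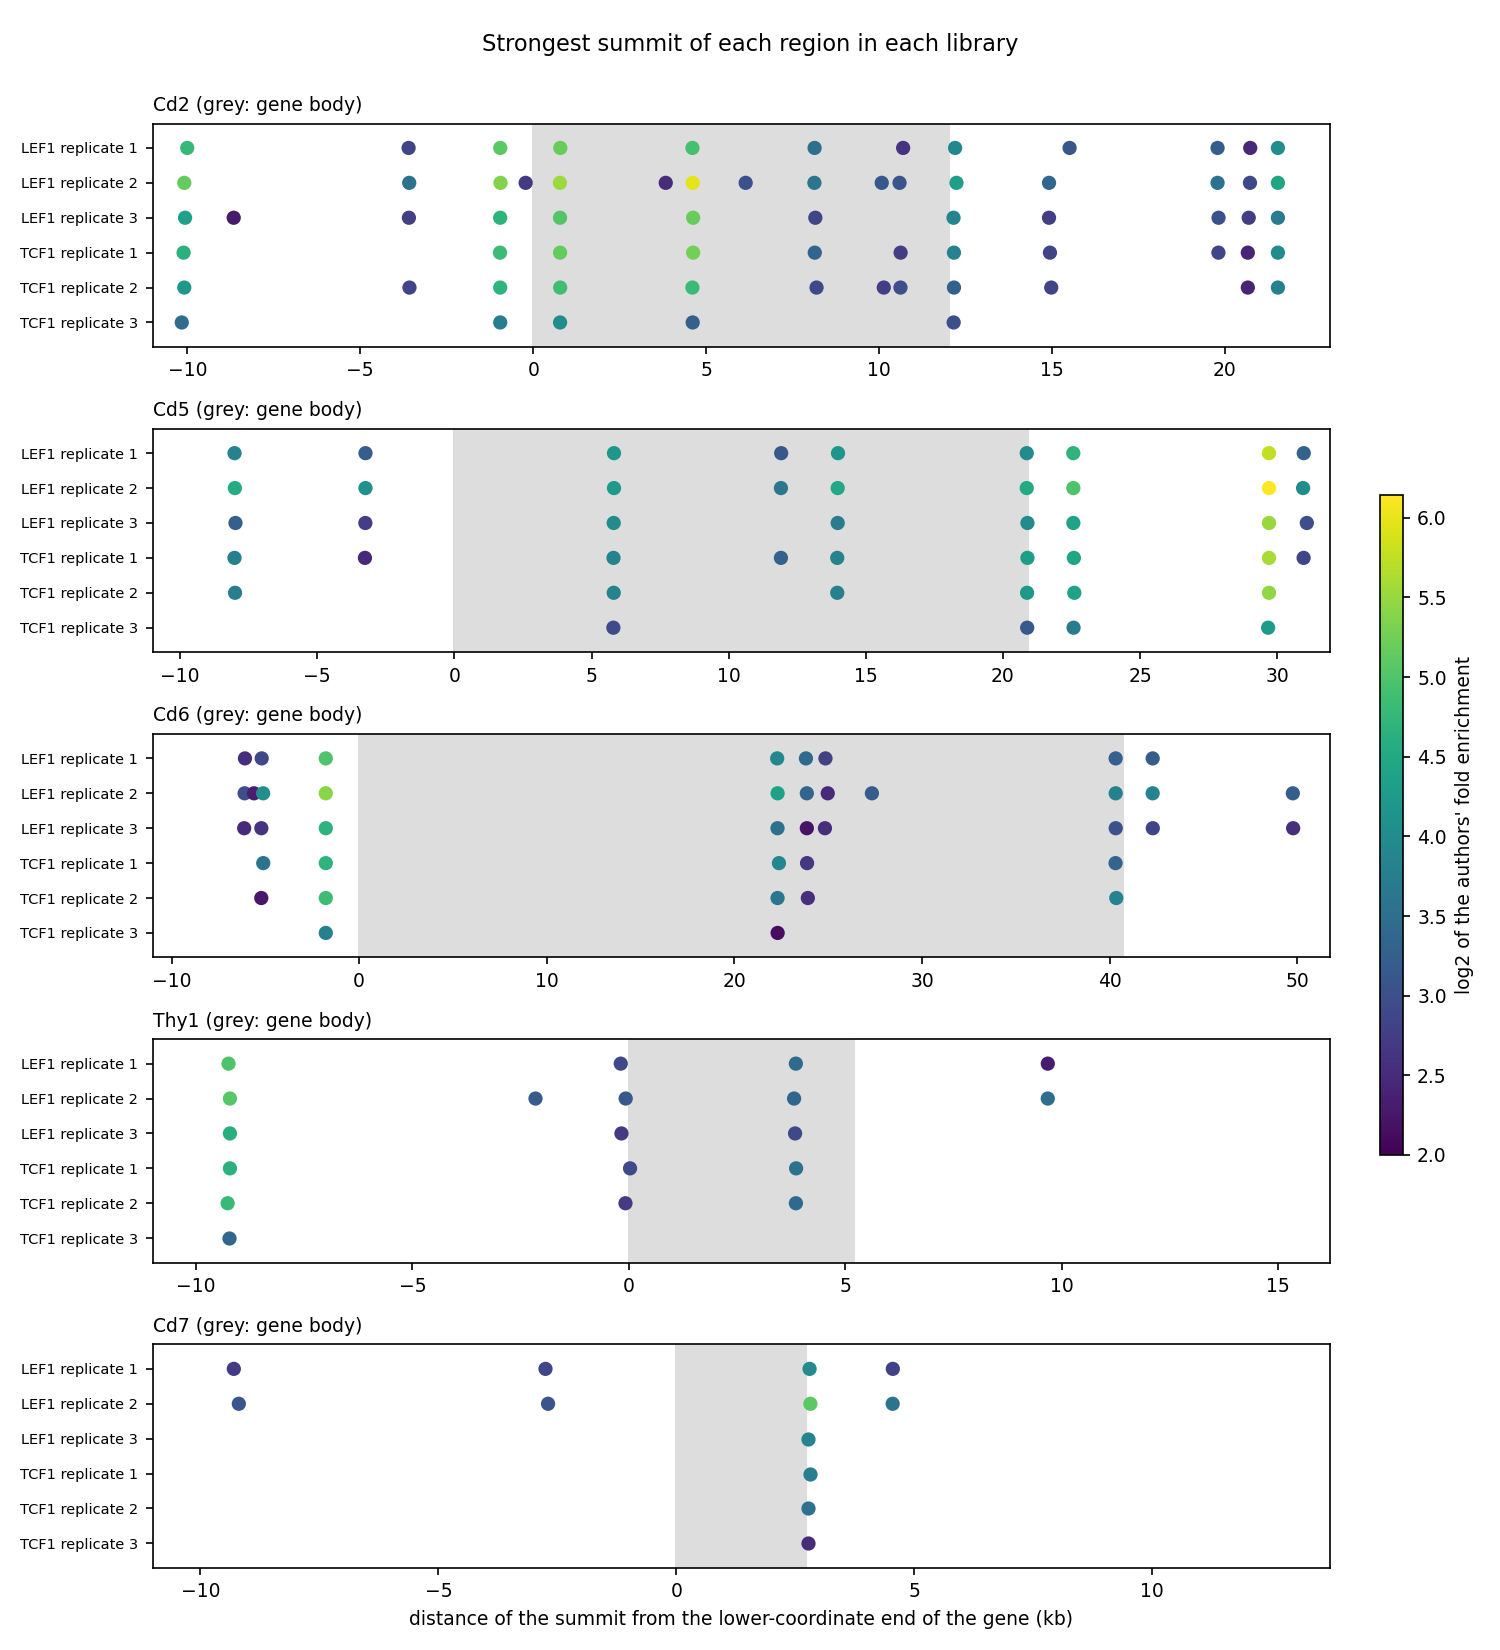
Maps of the 5 windows with 1 row per library, in which each point is the strongest summit of a region, placed by its distance in kb from the lower-coordinate end of the gene and coloured by the log2 of the authors' fold enrichment. Cd2 and Cd5 show columns of points through all 6 rows, the brightest 8.31 kb above Cd5, while Cd7 has 1 such column, at its upper end.

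Cd5, the gene of the receptor that dampens T cell receptor signals, had the strongest region of all 5 genes. Region 8 (10747339 to 10748352) lay 8.31 kb above the gene, on the upstream side. Its fold enrichment was 54.5, 70.7 and 45.3 in LEF1 replicates 1 to 3 and 48.4, 44.1 and 19.2 in TCF1 replicates 1 to 3, percentiles 2.58 to 14.6. The summit lay at the same base, 10747811, in 5 libraries and 32 bases lower in TCF1 replicate 3. A long non-coding RNA gene, A430093F15Rik (10740947 to 10786043), covers this region and most of the DNA between Cd5 and Cd6.

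Region 6 of Cd5 (10738761 to 10739244) covered the promoter shown above. The fold enrichment there was 16, 22.9 and 15.9 for LEF1 and 19.6, 18.3 and 8.79 for TCF1. The summits lay 3 to 29 bases before the gene start of the promoter table in all 6 libraries, between the second AGGAAG and the start. The summits and that AGGAAG lie inside the outer end of the annotated gene, so they fall beyond the stretch shown. Region 7 (10740482 to 10741054), 1.46 kb upstream of the gene's outer end, was stronger, with 25.6, 31.7 and 21.2 for LEF1 and 21.7, 20.9 and 13 for TCF1. Inside the gene, region 3 (10723594 to 10724293; fold enrichment 7.62 to 18.9) was found in all 6 libraries. Regions 1 and 5 were missing only from TCF1 replicate 3, and region 1 lies in Vps37c, the 1 other protein-coding gene reached by any of the 5 windows. Regions 2, 4 and 9 were held by LEF1 only, each with a peak in TCF1 replicate 1 and no other TCF1 library.

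Cd6, the gene of the ALCAM receptor, had its strongest region below its lower end. Region 4 (10787315 to 10788528), 0.811 kb outside the gene, had fold enrichments of 31.7, 42.5 and 25.5 for LEF1 and 25.5, 28.6 and 14 for TCF1. Its strongest summit was at base 10787560 in all 6 libraries, as at 2.08% of the regions in the genome found in every library. In 5 of them, all but LEF1 replicate 2, the region held a weaker second interval. Region 5 (10811373 to 10812162), deep inside the gene, was also found in all 6, at 15.3, 20.7 and 11.6 for LEF1 and 14.9, 12.4 and 4.39 for TCF1. In TCF1 replicate 3 it was near the weak end of the list, at percentile 97.8. Region 9 (10829465 to 10830114) spans the upper end and was missing only from TCF1 replicate 3, as were regions 3 and 6.

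Cd6 also held the most regions held by LEF1 alone, 4 of its 11, in the widest window of the 5 (60.7 kb). By share Cd7 had more, 3 of its 4. Regions 1, 7 and 10 of Cd6 had a peak in all 3 LEF1 libraries and in none of the TCF1 libraries. No other of the 5 genes had such a region, and the share of such regions in the genome was not computed. Regions 1, 7 and 10 were weak to moderate, with fold enrichments of 5.64 to 7.84, 5.63 to 6.97 and 7.18 to 14.3. Region 11 was found in LEF1 replicates 2 and 3 only.

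The Cd5 and Cd6 windows do not touch, so no interval counted for both genes. The 50.3 kb between the genes (10739027 to 10789338) held 16 regions, 14 held by LEF1 and 10 by TCF1, and 7 of them were found in all 6 libraries. Of the 16, 8 lay in the 30.3 kb outside both windows, the strongest at 10763427 to 10764154 with fold enrichments of 20.0 to 57.1. The 10 kb rule therefore leaves out a stretch with regions about as strong as those counted. Just inside the rule's edge, region 9 of Cd5 (9.67 kb above the gene) had fold enrichments of 7.25 to 15.8, and just outside it the next region (11.1 kb) had 5.15 to 6.21.

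Thy1, the gene of the GPI-anchored T cell marker, had 1 region in all 6 libraries, and it lay far from the gene. Region 1 (44033688 to 44034732), 8.65 kb below the lower end and inside the long non-coding RNA gene Gm39323, had fold enrichments of 31.5, 33.2 and 24.4 for LEF1 and 25.1, 27.7 and 10.2 for TCF1. The region at the lower end of Thy1 itself (region 3, 44043123 to 44043799) was weak, at 7.44, 8.84 and 6.53 for LEF1 and 7.60 and 6.61 for TCF1 replicates 1 and 2. It was missing from TCF1 replicate 3, as was region 4 inside the gene (44047053 to 44047335; 7.57 to 11.6). Just beyond the 10 kb rule, 11.8 kb below the gene, a further region of all 6 libraries had fold enrichments of 8.39 to 26.3.

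Cd7 was marked mainly at its upper end. Region 3 (121038681 to 121039821) spans that end and had fold enrichments of 15.7, 34.4 and 14.6 for LEF1 and 13.3, 11.6 and 5.7 for TCF1. The long non-coding RNA gene Gm11775 (121037683 to 121053417) overlaps this end. A pseudogene, Gm22152 (121030858 to 121030982), lies in the window below Cd7 and overlaps no region. The other 3 Cd7 regions were each found in LEF1 replicates 1 and 2 and in no other library, with fold enrichments of 6.61 to 12.0. They count as held by LEF1, but LEF1 replicate 3 lacked all 3.

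**Figure D3:**
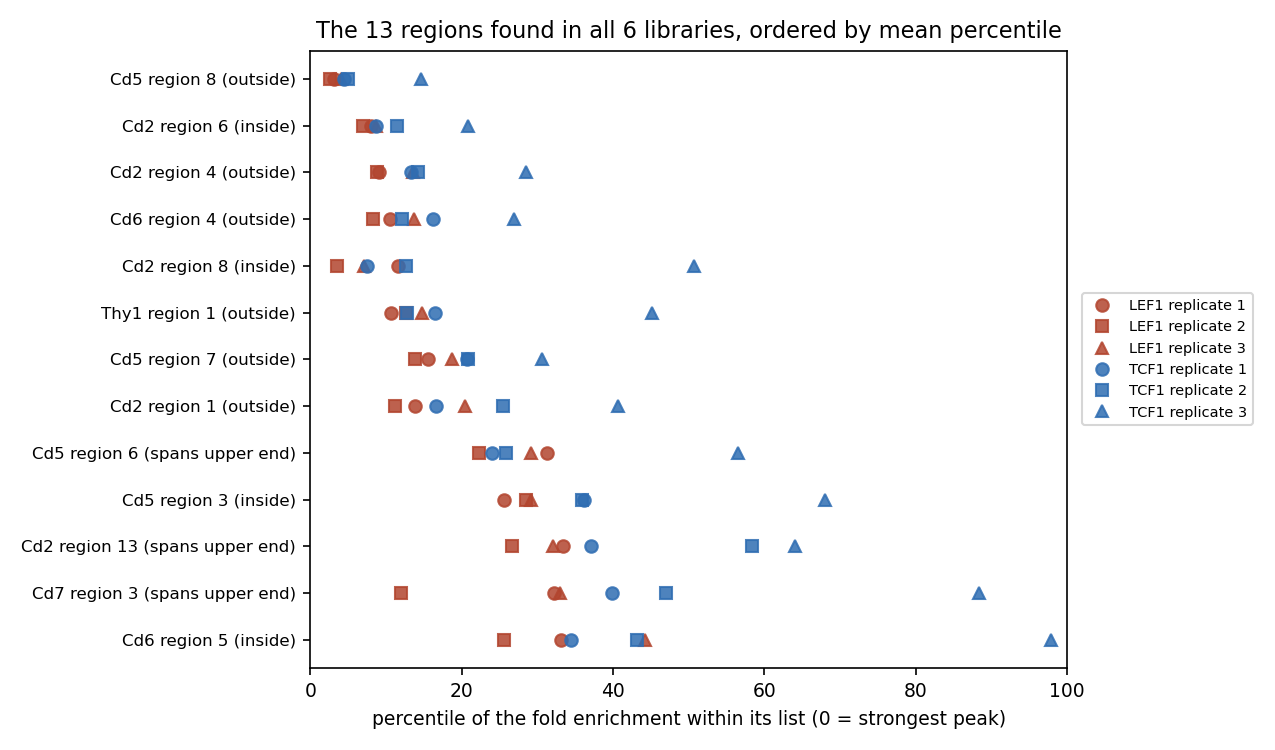
Percentile of the authors' fold enrichment within its own list (x axis, 0 is the strongest peak) for the 13 regions found in all 6 libraries, with 1 symbol per library. Region 8 of Cd5 leads at percentiles 2.58 to 14.6, and because the lists differ in length, positions are to be read within a library and not between libraries.

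Among the 46 regions, those found in more libraries had stronger ranks within their lists, given here as mean percentiles over the libraries with a peak, from lists of different length. The number of libraries and the percentile come from the same peak calls, in which weak peaks are missed more easily. The trend is thus partly built in, and it was not compared with all regions. The 13 regions of all 6 libraries had mean percentiles of 5.61 to 46.4 (median 20.0). The 11 regions of 5 libraries, all of them missing from TCF1 replicate 3, had mean percentiles of 32.1 to 84.7 (median 59.2). That library has the shortest list, and the share of such regions in the genome that lack it is not given here. The 7 regions of 1 library lay at 62.2 to 94.9. The 13 regions held by LEF1 alone had fold enrichments of 5.05 to 16.7, and 11 of them lay outside the gene bodies and 2 inside. All 5 regions that span a gene end were held by both factors. Of the 46 regions, 26 lay outside the gene bodies and 15 inside. Over all regions of the genome, 53.6% were held by both factors and 18.1% by LEF1 alone, but shares by position were not computed.

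Summits of both factors lay within 158 bases of each other in every region found in all 6 libraries. Across the 13 regions of all 6 libraries, the strongest summits of the 6 libraries spanned a median of 32 bases, against 49 over all such regions in the genome. The span was at most 20 bases in 3 of the 13, against 18.3% of such regions in the genome. The span was 0 bases at region 4 of Cd6, 11 at region 6 of Cd2 and 15 at region 4 of Cd2, and 158 at region 1 of Cd2, the widest. The LEF1 and TCF1 summits did not overlap in 1 of the 13 regions, against 11.8% of such regions in the genome. In that one, region 7 of Cd5, the LEF1 summits lay at 10740674 to 10740676 and the TCF1 summits at 10740684 to 10740712. One region in 13 is near the genome-wide share, so no offset between the factors stood out at these genes.

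**Figure D4:**
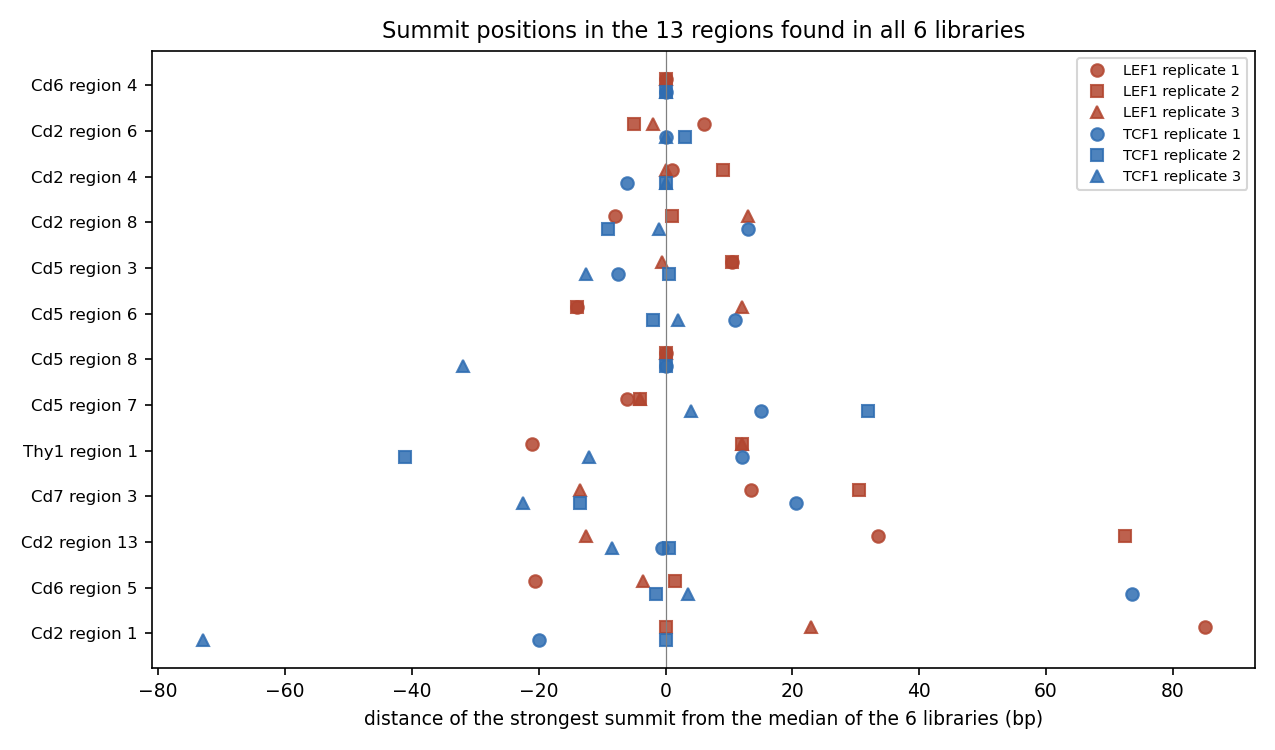
Distance in bases of each library's strongest summit from the median of the 6 libraries, for the 13 regions found in all of them, ordered by span. The points of region 4 of Cd6 coincide at 0, and those of region 1 of Cd2 span 158 bases.

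The number of peak intervals per gene was then compared between the factors. At Cd2, the LEF1 libraries had 12, 16 and 13 intervals and the TCF1 libraries 11, 13 and 5, with means of 13.7 ± 2.08 and 9.67 ± 4.16 (SD, n = 3). The groups overlapped (two-sided exact permutation test, p = 0.3). Cd5 had 9, 9 and 8 against 9, 6 and 4 (exact permutation p = 0.4). Cd6 had 9, 11 and 10 against 6, 6 and 3, with means of 10 ± 1 and 5 ± 1.73 (SD, n = 3). Here every LEF1 library was above every TCF1 library. The p of 0.1 (two-sided exact permutation test) is the lowest this design can reach, and 3.66% of all genes reached it. After Benjamini-Hochberg adjustment over the 21887 genes, the adjusted p was 1 for each of the 5 genes (exact permutation test). Thy1 had 5, 5 and 3 against 3, 3 and 1 (exact permutation p = 0.3), and Cd7 had 4, 4 and 1 against 1, 1 and 1 (exact permutation p = 0.4). Counts without overlap between the groups, LEF1 higher, occurred at 1 of the 5 genes and at 3.63% of all protein-coding genes, and with TCF1 higher at 0 of 5 and 0.0274%. These shares of genes, and those given below, cover all 21887 genes, of which 10373 held no LEF1 region. TCF1 replicate 3 was the lowest TCF1 library, or tied for it, at each gene. Without it the difference was 1.67 in place of 4 at Cd2, 1.17 in place of 2.33 at Cd5, 4 in place of 5 at Cd6 and 1.33 in place of 2 at Thy1, and stayed at 2 at Cd7.

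The LEF1 surplus was smaller relative to list length. Over the 5 genes together, the LEF1 libraries had 39, 45 and 35 intervals and the TCF1 libraries 30, 29 and 14. Per 10000 peaks of each list, these became 14.1, 12.0 and 14.8 for LEF1 and 11.7, 12.7 and 12.3 for TCF1. The means were then 13.6 ± 1.47 and 12.2 ± 0.479 (SD, n = 3), a difference of 1.40, below the LEF1 SD. At Cd2 and Cd5 the scaled means turned to slightly higher in TCF1 (4.78 against 4.69, and 3.21 against 3.01), by less than either SD. At Cd6 the scaled values were 3.25, 2.92 and 4.22 for LEF1 and 2.34, 2.62 and 2.63 for TCF1, again without overlap (two-sided exact permutation test, p = 0.1), as at 2.01% of all genes, while 2.89% had every TCF1 library above. At Thy1 the scaled values were 1.81, 1.33 and 1.27 against 1.17, 1.31 and 0.875, and at Cd7 1.45, 1.06 and 0.422 against 0.390, 0.437 and 0.875, with overlap at both.

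With the 11423 strongest peaks of each library the difference in regions was gone. LEF1 held 16 regions at the 5 genes and TCF1 held the same 16: 6 at Cd2, 6 at Cd5, 2 at Cd6 and 1 each at Thy1 and Cd7. No region was then held by 1 factor alone, where 1335 of 14552 regions in the genome were held by LEF1 alone and 1290 by TCF1 alone. The intervals numbered 17, 16 and 15 for LEF1 and 17, 17 and 14 for TCF1. At Cd6 the direction of the interval count turned, with 3, 2 and 2 intervals for LEF1 and 3, 4 and 3 for TCF1 (two-sided exact permutation test, p = 0.3). The turn is not one of regions, because region 4 counts 2 intervals in each TCF1 library. In these lists Cd6 had 2 regions found in all 6 libraries, 1 found in 1 LEF1 library and 1 found in 1 TCF1 library. No gene of the 5 was without overlap in either direction, against 1.04% of all genes with LEF1 higher and 2.41% with TCF1 higher. Equal lists also set aside any difference in how many places were marked, so list length and the number of marked places cannot be told apart.

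**Figure D5:**
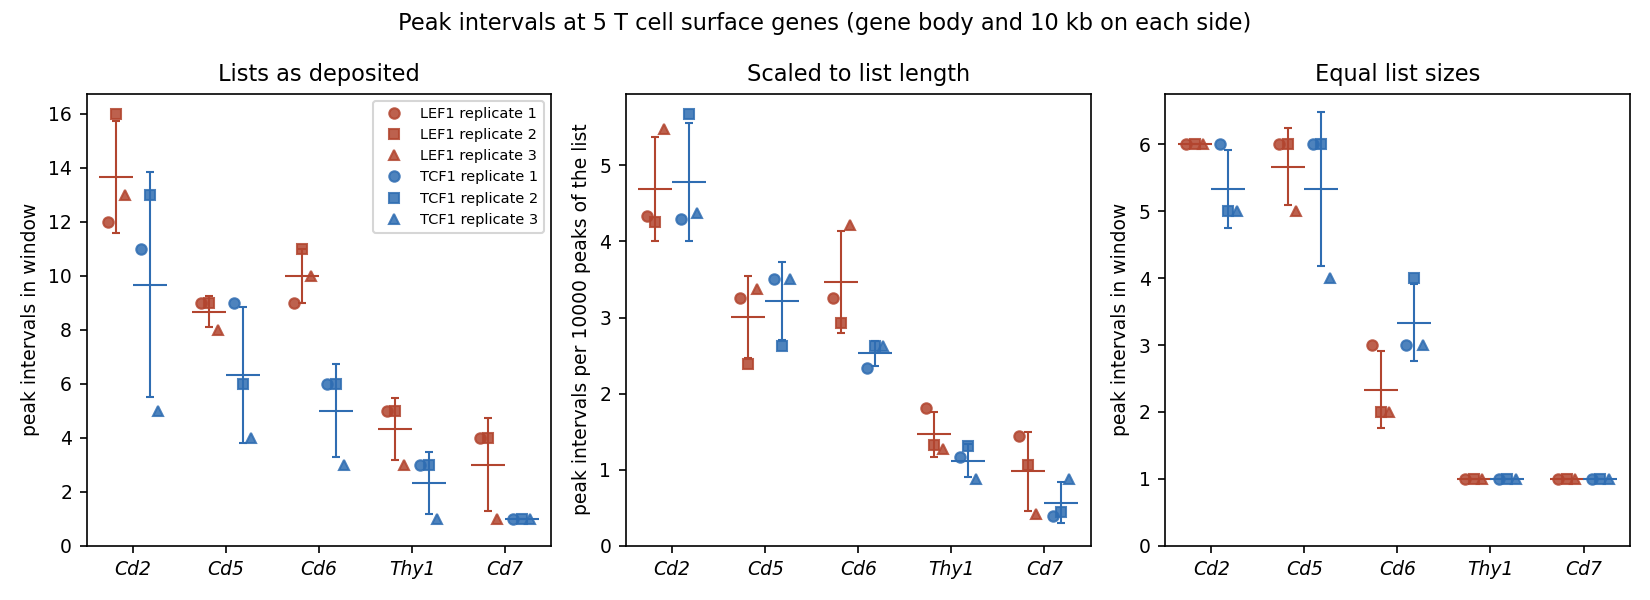
Peak intervals in each gene's window, as deposited (left), per 10000 peaks of the list (middle) and with the 11423 strongest peaks of each library (right). Points are libraries, horizontal marks are means and bars are SD (n = 3). Cd6 is the gene whose groups do not overlap on the left and in the middle. On the right its mean is higher for TCF1, where region 4 counts 2 intervals in each TCF1 library.

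Ranks can be set side by side where lists have equal size, and 12 of the regions were found in all 6 such lists. In 9 of them the ranks of the factors overlapped. LEF1 ranked region 8 of Cd5 higher in every library (ranks 856, 972 and 958 against 1125, 1135 and 1666, where 1 is the strongest), and also region 3 of Cd7 (8908, 4527 and 7812 against 10218, 10662 and 10088). TCF1 ranked the promoter region of Cd5 higher in every library (6153, 5920 and 6445 against 8653, 8380 and 6897). Over all regions found in 6 lists of equal size, 15.9% had every LEF1 rank higher and 16.8% every TCF1 rank higher, so 2 and 1 of 12 are near the shares elsewhere.

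A list of 26 other genes was then examined. It holds genes of ligands and partners of the 5 proteins, and also genes of other GPI-anchored surface proteins of T cells. Of these, 22 held a LEF1 region and 22 a TCF1 region, with medians of 4.5 and 3.5 regions per gene. Over all protein-coding genes the shares were 52.6% and 49.8%, with medians of 1 and 0. Gene length was not allowed for. The 14 signalling partners all held regions of both factors. Grap2, an adaptor gene, led with 24 LEF1 and 21 TCF1 regions over 80.3 kb. The kinase gene Fyn held 18 and 12, the ubiquitin ligase gene Cblb 18 and 15, and Cd247, the gene of the T cell receptor zeta chain, 15 and 12. Of the ligand genes, Cd48 (the CD2 ligand) held 5 and 4 and Sectm1a 2 and 2, while Alcam (the CD6 ligand) and Sectm1b held none. Cd24a, the gene of a GPI-anchored protein, also held none, Ly6c1 held 1 LEF1 region and no TCF1 region, and the integrin gene Itgav held 1 TCF1 region and no LEF1 region. In the lists as deposited, interval counts without overlap between the groups, LEF1 higher, were found at 6 of the 26, against 3.63% of all genes. All 6 are signalling partners. The 3.63% covers all 21887 genes, of which 10373 held no LEF1 region. Counts at the 26 genes were not scaled to list length or taken from equal lists, so a LEF1 surplus beyond list length was not tested.

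Genes with the most similar interval counts were sought by the sum of absolute differences over the 6 libraries. For Cd2, the nearest was Ccr7, the gene of a lymph node homing receptor, with 11, 16 and 13 LEF1 and 11, 12 and 6 TCF1 intervals (sum of differences 3). Lbh (4) and Elovl5 (5) followed. The nearest to Cd5 were Hnrnpl, Neurl3 and Nup153 (2 each), and the nearest to Cd6 were Limd1 and Fryl (4 each) and Rnf125 (5). Zfp574 and Cnot8 matched Thy1 in all 6 libraries, and Lama4 matched Cd7. Low counts match many genes: 17 genes were within a sum of 1 of Thy1 and 9 within 1 of Cd7, against 1 within 3 of Cd2.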

How the data were processed

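The CUT&RUN peaks of 6 libraries (3 with LEF1, 3 with TCF1 antibody) were analysed, with groups and replicate numbers from the sample titles. Per the submitters' processing notes, the tools included Trim Galore 0.6.6, Bowtie2 2.4.4, Picard and MACS3 3.0.3, with genome build GRCm38.p6. The sources used here give neither the peak calling options nor the control. The deposited lists, 1 per library, give for each peak a fold enrichment (a ratio to the local background), −log10 p and −log10 q, and a whole-number score, all as the authors deposited them. Depth is not given, so no counting error of a peak is stated.

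Only the numbered chromosomes, X and Y entered, with 1-based coordinates. Gene positions came from a RefSeq table of the same build (21887 protein-coding genes), and the strand of Cd5 from the promoter table. Exons and introns were not resolved. Peaks overlapping by at least 1 bp were merged into regions. Python 3.11.15, numpy 2.4.6 and pandas 2.3.3 were used. Differences per gene were tested by exact permutation, with all 20 ways of assigning the libraries, and adjusted over all protein-coding genes. The code was tested on simulated data. Alternatives were equal list sizes, −log10 q of at least 5, no flank or 50 kb, an overlap of 100 bp, a peak in all 3 libraries, scaling to list length, a replicate block, every summit counted, and leaving out each library. The count of regions missing only from TCF1 replicate 3 and the genome-wide shares without overlap in equal lists were added after seeing the data. The genes, lists and named genes were chosen with earlier results of these data known. Named are the 5 genes, genes reached by their windows and the 3 genes nearest in interval counts. Of the 26 ligand, partner and GPI-anchored protein genes, the 4 with the most regions and those lacking regions of a factor are named. Every listed interval had 1 summit.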

Additional observations from a re-analysis of the deposited data

How the results depend on the processing

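No per-gene difference passed an adjusted threshold under any setting (exact permutation test, smallest unadjusted p 0.1, adjusted p 1 throughout). The difference in intervals, LEF1 minus TCF1, was 4 at Cd2, 2.33 at Cd5, 5 at Cd6, 2 at Thy1, 2 at Cd7 and 15.3 over the 5 genes. Per 10000 peaks it was -0.092 at Cd2, -0.21 at Cd5 and 1.40 over the 5 genes. With equal list sizes it was -1 at Cd6, where 1 region counts 2 intervals in each TCF1 library, and 0 at Thy1, at Cd7 and over the 5 genes. Within gene bodies only it was 0 at Cd7 and 4.33 over the 5 genes, and with 50 kb on each side 28.7 over the 5 genes. Leaving out 1 library gave 1.67 to 5.67 at Cd2, 1.17 to 3.67 at Cd5, 4 to 5.5 at Cd6, 1.33 to 2.67 at Thy1, 1.5 to 3 at Cd7 and 10.2 to 18.2 over the 5 genes, lowest without TCF1 replicate 3 at Cd2, Cd5, Cd6, Thy1 and over the 5 genes. Regions held by LEF1, by TCF1 and by both numbered 38, 25 and 25. They were 16, 16 and 16 with equal list sizes, 16, 14 and 14 in gene bodies, and 78, 53 and 52 with 50 kb. With a peak required in all 3 libraries TCF1 and both factors held 13 each. Without 1 library the counts were 32 to 38, 13 to 26 and 13 to 25, with 13 for TCF1 and both without TCF1 replicate 1 or TCF1 replicate 2, settings that need a peak in TCF1 replicate 3. The stricter threshold turned no direction, and the 100 bp overlap, run for the region counts only, left them at 38, 25 and 25.

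With the replicate number as a block, the differences were the same 4, 2.33, 5, 2 and 2, with sign-flip exact permutation p of 0.25 to 0.5 (smallest possible 0.25). The block rests on a number alone: deviations of same-numbered libraries correlated at -0.18, 0.32 and 0.56 over 11830 genes, and LEF1 replicates 1 and 2 and TCF1 replicate 1 each correlated best with another number.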
